A study of Mus musculus with 135 samples.

Results

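Cytokines and interleukin receptors are described here by 10 genes of the mouse brain, chosen by symbol from the 55416 genes of the deposited count tables. They are the ligand genes Il1a, Il1b, Il18, Il33, Tnf, Il6, Tgfb1 and Il34 and the receptor genes Il1r1 and Il6ra. A minimum on counts was passed by 8 of them in the cortex (all but Tnf and Il6) and by 9 in the hippocampus (all but Il6). Bulk RNA sequencing reads the polyadenylated RNA of a whole piece of tissue, so that fewer cells of a type and less RNA per cell cannot be told apart.

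Male Townes mice, whose own globin genes have been replaced by human ones, gave the cortex and hippocampus libraries. The human beta globin is the sickle form in SS mice and the normal adult form in AA mice, and every group shares this humanized background. AA and SS denote mice with neither stress nor drug. AA + RSD and SS + RSD mice were exposed to repeat social defeat, in which an aggressive male was placed in their cage on consecutive days, SS + minocycline mice drank the tetracycline antibiotic minocycline in their water without stress, and AA + RSD + minocycline and SS + RSD + minocycline mice had both. The mice were adults of matched age, and the labels give no age. Of untreated mice, 12 AA and 8 SS libraries of the cortex and 11 and 7 of the hippocampus were used. Each tissue further had 2 AA + RSD, 6 SS + RSD, 4 SS + minocycline, 18 AA + RSD + minocycline and 14 SS + RSD + minocycline libraries. The only AA + minocycline mouse was kept in the models but compared with nothing. Within a tissue each library is labelled as a separate mouse, and most mice gave a library of each tissue. Depth was 16295042 to 107713193 reads on genes in a cortex library, with a median of 33848502, and 12869149 to 68731008 in a hippocampus library, with a median of 36523234.

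Some libraries went against their labels. Mice 9887 (SS + minocycline) and 9877 (AA + RSD + minocycline) held identical counts in each tissue and were left out of both. The pair of mouse 9674 (AA + RSD) was left out because its tissue markers were the wrong way round. The log2 ratio of 6 hippocampal marker genes over 6 cortical ones was 0.69 in its library labelled cortex and -1.66 in that labelled hippocampus, where the medians of the used libraries were -1.52 and 0.97. Among the used libraries, 5 of 65 cortex libraries also had a ratio above 0 (0.45 to 1.21), 3 of them SS + RSD + minocycline, 1 AA + RSD + minocycline and 1 SS + RSD, and 1 of 63 hippocampus libraries was at -0.08. Mice 5844 and 5853, labelled AA, had the red cell gene Alas2 at 98.8 and 50.5 CPM (read counts scaled to library size) in the cortex, where the AA median was 5.1. Mouse 7078, labelled SS, was at 6.35 against an SS median of 92.8, and mouse 9631, labelled AA, carried 1944 cortical reads of the mouse beta globin gene Hbb-bs. These 4 mice were kept. Where keeping or leaving out such libraries changed the call of a member, or ended that of a related gene named here, this is stated with the result.

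IL-1 alpha and IL-1 beta are alarm cytokines that bind the receptor encoded by Il1r1, which signals together with the accessory chain Il1rap. IL-6 binds the chain encoded by Il6ra and signals through gp130 (Il6st). IL-18 and IL-33 belong to the IL-1 family but use receptors of their own, IL-34 is a neuronal ligand of the microglial receptor CSF1R, and TGF-beta 1 helps keep microglia in their resting state. TNF and IL-6 are made at little or no level in the undisturbed brain. In the mouse brain Il1r1 is known from endothelial cells and from neurons of the dentate gyrus of the hippocampus.

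Promoters are shown for the ligands of low level, for Tgfb1 and for Il1r1, the member the results turn on, so that their letters in front of the start site can be compared. RefSeq promoters (GRCm38.p6) were at hand for 9 of the 10 genes, Il34 having none in the table. In the 250 bases before the start site, both strands were searched for GGG followed by any 2 bases and TTTCC (a form of the NF-kappaB site, in 1.41% of 32851 promoters), GGGCGG (the GC box, in 32.7%) and TATAAA (the TATA box, in 12.4%). None of the printed matches overlaps another. Of each promoter the last 80 bases before the start site are printed 5′ to 3′ on the strand of the gene, with the motifs in capitals.
Il1a (chr2:129309973-129310052, minus strand): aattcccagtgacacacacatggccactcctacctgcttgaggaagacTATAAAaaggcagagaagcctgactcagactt
Il1b (chr2:129371140-129371219, minus strand): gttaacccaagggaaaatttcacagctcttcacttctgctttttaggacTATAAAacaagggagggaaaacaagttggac
Tnf (chr17:35202008-35202087, minus strand): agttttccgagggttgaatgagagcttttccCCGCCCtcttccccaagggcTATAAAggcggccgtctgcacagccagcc
Il6 (chr5:30013034-30013113, plus strand): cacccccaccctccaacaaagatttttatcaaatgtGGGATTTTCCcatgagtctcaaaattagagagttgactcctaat
Tgfb1 (chr7:25686922-25687001, plus strand): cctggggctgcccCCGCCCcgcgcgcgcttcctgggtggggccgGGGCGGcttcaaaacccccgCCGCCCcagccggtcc
Il1r1, second of its start sites in the table (chr1:40266506-40266585, plus strand): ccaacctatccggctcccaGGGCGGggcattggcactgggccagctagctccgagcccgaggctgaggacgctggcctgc
Il1a, Il1b and Tnf had TATAAA at -32, -31 and -29, counted from the start site. Il6 had the only NF-kappaB match among the 9 genes, at -44, and Tgfb1 had 5 GC boxes and a GC content of 75.2%. The second start site of Il33 in the table also had TATAAA, at -29. Further from the start site it was found at -203 in the first of Il33 and, on the other strand, at -175 in Il18. Il6ra and the first start site of Il1r1 held none of the motifs. A match of letters is a description and says nothing of binding in these tissues.

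The ligands Il34, Il33 and Il18 were the most abundant members in both tissues, and Tnf and Il6 were at the limit of detection. Per kilobase of exon, the cortical level was 14.3 ± 1.96 CPM for Il34, 9.52 ± 2.46 for Il33 and 5.73 ± 1.13 for Il18 (SD, n = 65). Tgfb1 followed at 0.866 ± 0.189, Il6ra at 0.642 ± 0.12, Il1r1 at 0.59 ± 0.255, Il1b at 0.22 ± 0.117 and Il1a at 0.159 ± 0.0687 CPM per kilobase. Tgfb1, Il6ra and Il1r1 lay within their spread of each other, as did Il1b and Il1a. In the hippocampus Il1r1 at 2.31 ± 0.576 stood above Il6ra at 1.03 ± 0.143 and Tgfb1 at 0.965 ± 0.207 CPM per kilobase (SD, n = 63). Il6ra and Tgfb1 lay within their spread of each other there. Il34 stood at 11.3 ± 1.66, Il33 at 9.42 ± 2.11 and Il18 at 5.58 ± 0.887, and there Il34 and Il33 lay within their spread of each other.

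**Figure D1:**
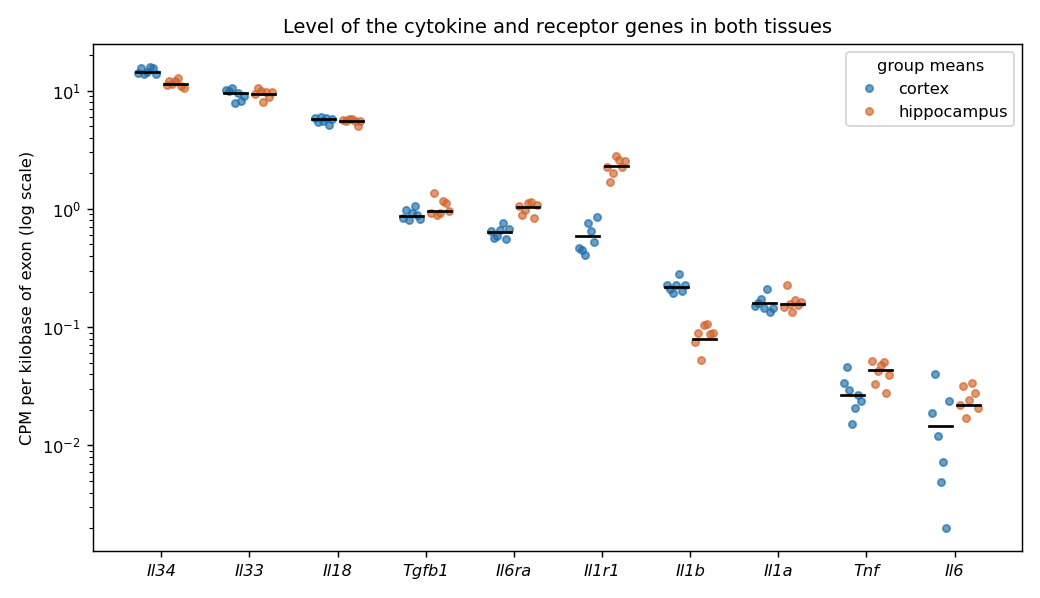
Level of each member in CPM per kilobase of exon (log axis) in the cortex and the hippocampus, with 1 point per group mean and a line at the mean over all used libraries. By the mean over all used libraries, Il34, Il33 and Il18 lie above 5 CPM per kilobase in both tissues and Tnf and Il6 below 0.1. Il1r1 lies higher in the hippocampus than in the cortex.

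Tnf had 0 to 8 reads in a library of either tissue, with none in 20 of 65 cortex and 8 of 63 hippocampus libraries. Summed over the tissue this was 107 reads in the cortex, or 0.0438 CPM (exact 95% Poisson interval 0.0359 to 0.0529, which covers counting error only), and 166 reads or 0.068 CPM (0.058 to 0.0792) in the hippocampus. Il6 had 0 to 7 reads in the cortex, where 31 of 65 libraries held none, and 0 to 9 in the hippocampus, where 18 of 63 held none. Its summed level was 0.0385 CPM (0.0311 to 0.0471) in the cortex and 0.0553 CPM (0.0464 to 0.0654) in the hippocampus. Il6 in both tissues and Tnf in the cortex missed the minimum on counts and were tested only in the fit without it, where neither passed in any comparison of groups. Cortical Il6 in SS + RSD + minocycline was at 0.0579 ± 0.051 CPM, with 7 of 14 libraries above every SS library (0.0118 ± 0.0232 CPM) and above every SS + RSD library (0.0175 ± 0.0212 CPM), and its log2 differences were 1.93 from SS (adjusted p = 0.748) and 1.47 from SS + RSD (adjusted p = 0.332). The means of groups with more than 1 library ranged from 0.00488 CPM for Il6 in cortical SS + minocycline to 0.0966 CPM for Il6 in cortical AA + RSD, the latter from a library at 0 and a library at 0.193 CPM.

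The members lie on separate chromosomes except for the neighbours Il1a and Il1b (GRCm39, all protein coding). Il1r1 is at chr1:40264174-40356417, Il1a at chr2:129140291-129152098, Il1b at chr2:129206490-129213059, Il6ra at chr3:89771366-89820719 and Il6 at chr5:30218112-30224979. Tgfb1 is at chr7:25386390-25404506, Il34 at chr8:111423928-111532584, Il18 at chr9:50466081-50493633, Tnf at chr17:35418357-35420983 and Il33 at chr19:29902483-29938933. Exons of 5 members overlap a gene on the other strand, over 13.7% of exonic bases in Il1a (Gm14023), 5.17% in Il6ra (Gm42809), 3.65% in Il1b (Il1bos), 2.62% in Il34 (Vac14) and 2.57% in Il33 (Gm41832). The strand setting of the counting is not given in the sources used here, so reads of Il1a and Gm14023 cannot be told apart in that stretch.

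The clearest difference among the members was between the tissues. Both receptors were higher in the hippocampus of AA mice, Il1b and Il34 were lower there, and Il1a, Il18, Il33, Tgfb1 and Tnf did not pass the test. Of the 9 members tested, 4 were called at an adjusted p under 0.05 in AA mice and 2, Il1r1 and Il6ra, in SS mice, where 26.7% and 21.3% of all 24187 genes tested were called. With a low-count filter blind to group Il1b was not among the genes tested, and 3 members were called in AA mice. The p-values are from edgeR's quasi-likelihood test with Benjamini-Hochberg adjustment over all genes, here and in what follows. Between the tissues the model had no term for the mouse, except where the mouse number is named as a block.

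Il1r1 had 15.3 ± 4.97 CPM in the hippocampus (n = 11) and 3.18 ± 0.533 CPM in the cortex (n = 12) of AA mice, and 19.2 ± 3.19 (n = 7) and 5.13 ± 1.39 CPM (n = 8) in SS mice. The hippocampal level was 4.76-fold the cortical one in AA (log2 difference 2.25 ± 0.16 SE, adjusted p = 4.55e-24) and 3.7-fold in SS mice (1.89 ± 0.2 SE, adjusted p = 2.11e-14). It was the higher of the pair in 63 of 63 mice, with a median ratio of 4.18 and a range from 1.77 to 11.7. Il6ra had 9.36 ± 0.951 CPM in the hippocampus and 5.73 ± 0.582 CPM in the cortex of AA mice, a difference of 1.62-fold (adjusted p = 3.29e-10), and of 1.68-fold in SS mice (adjusted p = 4.18e-08). It was higher in the hippocampus of 62 of 63 mice.

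Il1b had 0.197 ± 0.156 CPM in the hippocampus of AA mice against 0.586 ± 0.178 CPM in the cortex (log2 difference -1.61 ± 0.4 SE, adjusted p = 0.000619), and it was lower in the hippocampus of 57 of 63 mice. The counts behind this were small, with a median of 7 reads per hippocampus library. In SS mice the difference was -1.15 (adjusted p = 0.0718, and 0.0377 with the mouse number as a block). Il34 had 42.3 ± 5.35 CPM in the hippocampus and 54.1 ± 7.44 CPM in the cortex of AA mice (log2 difference -0.37 ± 0.08 SE, adjusted p = 0.00014) and was lower in the hippocampus of 56 of 63 mice. Its difference in SS mice was -0.26 (adjusted p = 0.0517, and 0.0303 with the mouse number as a block). With that block 4 members were called in SS mice in place of 2.

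Markers of cells at the borders of the brain moved with tissue too. All 7 choroid plexus markers were higher in the hippocampus of AA mice, with a median sum of 162 CPM (31.6 to 4180) against 17 CPM (8.2 to 40.9), most of it Ttr, and 1 of 7 was called in SS mice. Of 6 meningeal fibroblast markers 3 were higher in AA and 2 in SS mice, and of 7 endothelial markers none was called in either. Their part in the tissue differences of the members was not tested. Across the hippocampus libraries (n = 63) the Spearman rho of Il1r1 was -0.01 with the summed choroid plexus markers. It was -0.31 with the meningeal fibroblast and 0.33 with the endothelial markers. Values within a tissue do not bear on the difference between tissues.

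**Figure D2:**
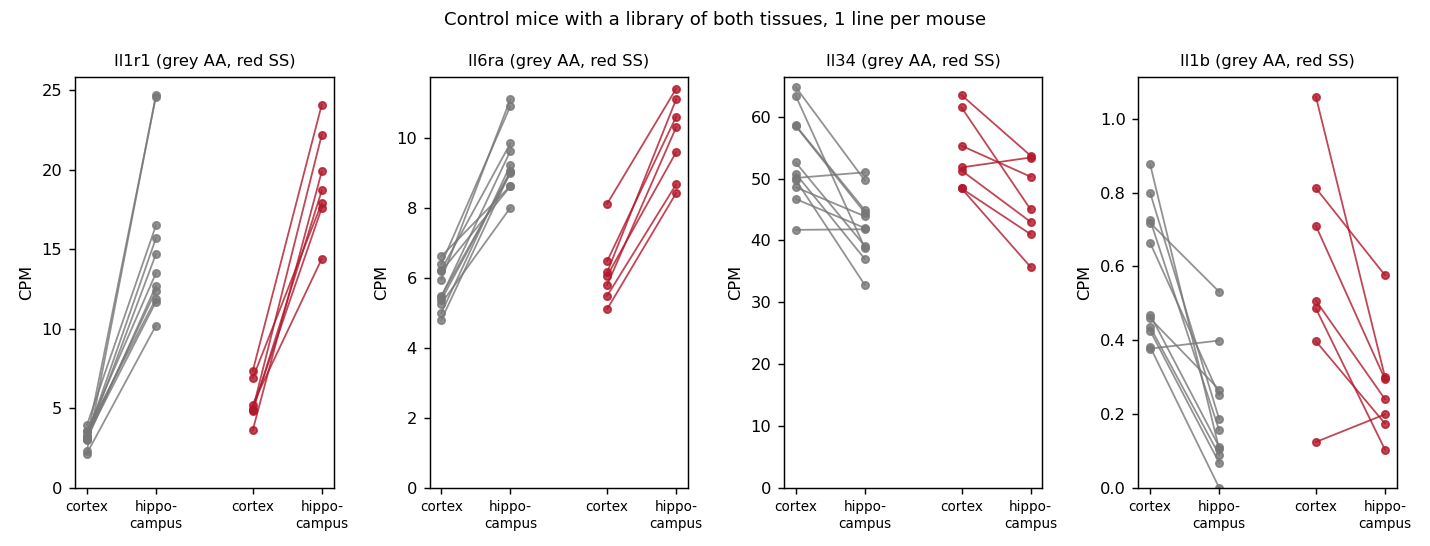
Level in CPM of Il1r1, Il6ra, Il34 and Il1b in the cortex and the hippocampus of the untreated AA and SS mice, with 1 line per mouse joining its tissues. Il1r1 and Il6ra are higher in the hippocampus in all 11 AA and all 7 SS pairs, while Il34 and Il1b are lower in the hippocampus in most pairs.

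Related genes were read from lists of IL-1 family, IL-6 and gp130, TNF and NF-kappaB, TGF-beta, IL-34 and CSF-1 receptor and other interleukin genes. The lists were chosen with earlier results of these data known, so the shares called in them are descriptions. In AA mice 35 of 99 related genes (35.4%) were called, beside 26.7% of all genes, and in SS mice 26 of 99 (26.3%), beside 21.3%. In AA mice the IL-1 family and TNF lists lay near or below the share of all genes. The hippocampus was higher for 2 and lower for 2 of 15 IL-1 family genes, higher for 3 and lower for 4 of 17 gp130 genes, higher for 3 and lower for 1 of 19 TNF genes, and higher for 3 and lower for 7 of 21 TGF-beta genes. Without the 4 mice of doubtful genotype the IL-1 family counts were 1 higher and 1 lower. Il1rap, the partner chain of Il1r1, was higher by 0.39 on the log2 scale (adjusted p = 0.00182). Among gp130 genes, the ligand Lif at 0.884 CPM was higher by 1.53 and the oncostatin M receptor Osmr by 0.87, while the feedback inhibitor Socs3 was lower by 1.14 (log2 -1.14, adjusted p = 1.13e-11). Tgfb2, a second TGF-beta ligand, was higher by 2.56 and its co-receptor Tgfbr3 by 1.03, and the integrin chain Itgav, which activates latent TGF-beta, was at -1.06. Of 8 IL-34 and CSF-1 receptor genes 1 was called, the second CSF1R ligand Csf1 at 0.37. Of 19 other interleukin genes 5 were higher, led by Il16 at 4.14 and Il27ra at 2.56, and 4 were lower, led by Il12a at -2.26 and the IL-17 receptor chain Il17ra at -1.2. The median log2 difference was between -0.05 and 0.2 in every list, beside 0.016 over all genes.

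Between the genotypes, Il1r1 was the member that differed, and it did so in the cortex of mice with RSD and minocycline. SS + RSD + minocycline libraries had 3.03, 5.04 and 10.6 CPM as lowest, median and highest value (mean 5.77 ± 2.22 SD, n = 14), and AA + RSD + minocycline libraries 1.21, 2.9 and 4.27 CPM (2.77 ± 0.796, n = 18). The groups overlapped, with 11 of 14 SS libraries above every AA library and 14 of 14 above the AA median. Il1r1 was 2.05-fold higher in SS (log2 1.04 ± 0.15 SE, adjusted p = 2.26e-06), and it was the 1 member called of 8 tested, where 0.599% of 22870 genes were called.

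Without the libraries whose tissue markers went against the label the difference was 0.99 (adjusted p = 6.87e-05), without the 4 mice of doubtful genotype 1.11, and among mice of number series B alone (a range of mouse numbers, explained further on) 1.1. Over 14 alternative fits it lay between 0.98 and 1.11 and passed in each. In the hippocampus of the same mice the difference was 0.32 (17.2 ± 3.27 against 13.8 ± 3.38 CPM, adjusted p = 0.222), where 2.73% of 23372 genes and none of 9 members were called. The genotype difference in the hippocampus minus that in the cortex was -0.73 ± 0.19 SE (adjusted p = 0.113), where 1 gene or 0.00413% was called. It passed at an adjusted p of 0.0452 without the 4 mice of doubtful genotype and stood at 0.244 with the mouse number as a block.

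Untreated mice showed Il1r1 the same way round without passing the test. In the cortex, AA mice had 2.15, 3.22 and 3.93 CPM as lowest, median and highest value, and SS mice 3.37, 4.93 and 7.33 CPM. Of 8 SS libraries 6 were above every AA library and all 8 above the AA median, and the log2 difference was 0.66 ± 0.19 SE (adjusted p = 0.202). No member was called there, where 0.206% of genes were. In a model of these groups alone the difference was 0.7 and passed (adjusted p = 0.0452), and DESeq2 gave 0.71 (adjusted p = 0.0596). In the hippocampus it was 0.33 (adjusted p = 1), with no member called beside 0.158% of genes.

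After RSD alone, Il1r1 in the cortex had 3.44 and 2.66 CPM in the AA mice and 5.8, 5.43, 4.74, 4.27, 3.19 and 3.06 CPM in the SS mice, 4 of which were above both AA mice. The log2 difference was 0.54 (adjusted p = 1), and none of the genes tested was called (0% at 22870 tested, 670 at an unadjusted p under 0.05). With the cortex library of mouse 9674 kept, which had 13.7 CPM, it was -0.58. In the hippocampus the AA mice had 11.1 and 12 CPM and all 6 SS mice more, between 12.9 and 20.9 CPM (log2 difference 0.59, adjusted p = 1, where 0.0171% of genes were called). Il6ra also had all 6 SS mice above both AA mice in each tissue, with log2 differences of 0.44 (cortex) and 0.36 (hippocampus) (adjusted p = 1 in each). The share of all genes with all 6 SS mice above both AA mice was not counted. Whether the genotype difference changed with RSD and minocycline was tested as an interaction. It was 0.37 ± 0.24 SE for Il1r1 in the cortex (adjusted p = 0.986) and -0.01 in the hippocampus, and 0% of genes were called in either tissue (697 and 1067 at an unadjusted p under 0.05).

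**Figure D3:**
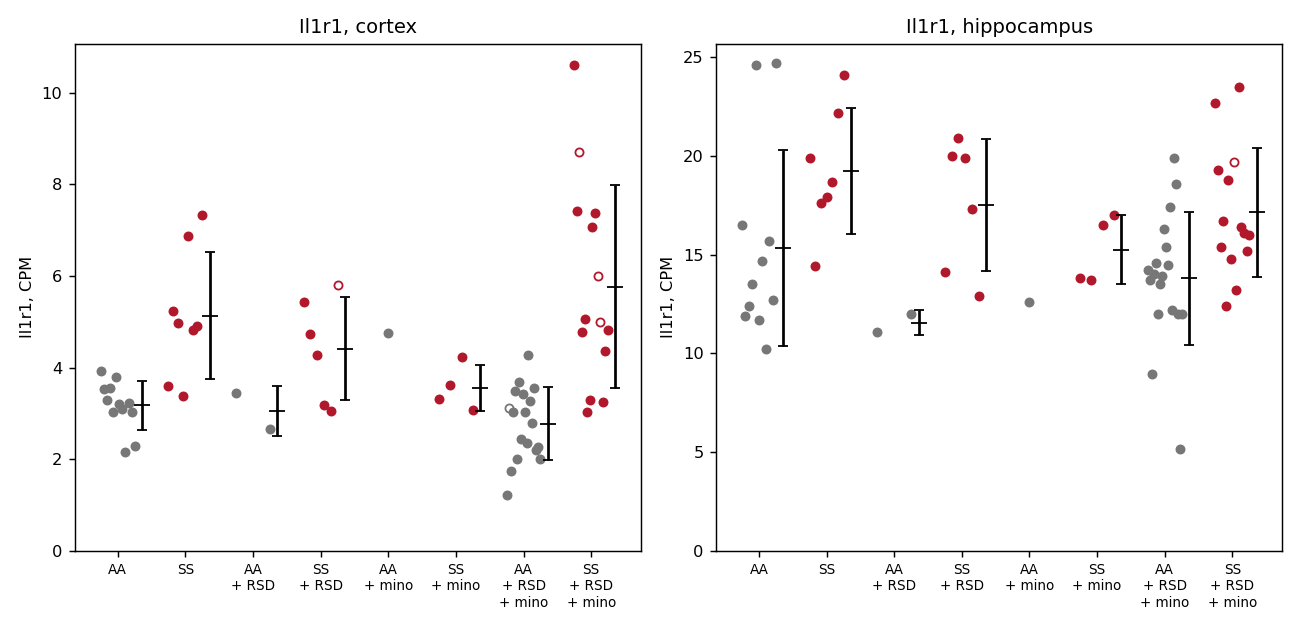
Il1r1 in CPM in every used library by group, cortex and hippocampus, AA in grey and SS in red, with the mean ± SD as a bar and open symbols for libraries whose tissue markers went against the label. In the cortex SS + RSD + minocycline lies between 3.03 and 10.6 CPM and AA + RSD + minocycline between 1.21 and 4.27 CPM.

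Markers of blood-borne cells moved with genotype in the same cortical comparison. Of 8 neutrophil markers 3 were higher in SS + RSD + minocycline (Lcn2, S100a9 and S100a8), with a summed level of 2.46 ± 2.69 against 0.512 ± 0.642 CPM and Lcn2 as the most abundant at 1.01 CPM. Of 9 T and B cell markers 5 were higher (5.46 ± 3.1 against 2.08 ± 0.75 CPM, most of it Cd4), and 6 of 7 erythroid markers were. Of 8 border macrophage and monocyte, 10 microglia and 7 endothelial markers none was called, with summed levels of 8.49 ± 3.76 against 5.95 ± 2.44, of 320 ± 70.4 against 294 ± 59.7 and of 280 ± 37.1 against 245 ± 44.5 CPM. No marker of these lists was at 0 in all libraries of a group. Their part in the difference of Il1r1 was not tested. In untreated cortex 5 of 7 erythroid and 2 of 7 choroid plexus markers were higher in SS.

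The other members did not pass between genotypes in any condition. In untreated cortex, Il33 stood at 62.6 ± 14.2 CPM in AA mice and 48.8 ± 9.86 CPM in SS mice (log2 difference -0.39, adjusted p = 0.678). The summed oligodendrocyte markers were at 5840 ± 1100 CPM in the AA and 4660 ± 1130 CPM in the SS mice. Of the related genes, TGF-beta receptors and their inhibitor were called. Eng, a co-receptor of endothelial cells, was higher in SS in the cortex by 0.67 (adjusted p = 0.000733) without treatment and by 0.41 with RSD and minocycline, and in the hippocampus by 0.61 and 0.39. Smad6, an inhibitor of BMP and TGF-beta signalling, was higher in the cortex by 0.92 and 0.61 and in the hippocampus with RSD and minocycline by 0.47, and the endothelial receptor Acvrl1 was higher in untreated hippocampus by 0.52. These were 2 of 21 TGF-beta genes in each of the 4 comparisons, all of them higher in SS, as were most genes called there (611 of 638 in the hippocampus with RSD and minocycline). Of all related genes, 2.04% were called in untreated cortex beside 0.206% of all genes, and 4.08% beside 0.599% with RSD and minocycline. In the hippocampus 2.02% were called in each, beside 0.158% of all genes without treatment and 2.73% with RSD and minocycline. These shares are 2 or 4 genes per comparison, from lists chosen with earlier results of these data known. The hippocampal call of Smad6 passed in 7 of 14 alternative fits (adjusted p from 0.00449 to 0.198). In the cortex with RSD and minocycline, Smad6 passed in 10 and Eng in 12 of 14 (adjusted p up to 0.17 and 0.0654). Without treatment, hippocampal Eng and Acvrl1 passed in 13 of 15 each (up to 0.507 and 0.594), and cortical Eng and Smad6 in 14 of 15 each. Hippocampal Eng with RSD and minocycline passed in 14 of 14. With RSD and minocycline, Osmr (0.61, adjusted p = 0.00289) of 17 gp130 genes and the NF-kappaB inhibitor Nfkbia (0.44, adjusted p = 0.0472) of 19 TNF genes were also higher in SS cortex. The call of Nfkbia was lost with the identical libraries kept (adjusted p = 0.0997), without the 4 mice of doubtful genotype (0.0811) and without the libraries whose tissue markers went against the label (0.195). The last of these also ended that of Smad6 in the same comparison (0.59, adjusted p = 0.17). The IL-1 family list had none called of 14 or 15 between genotypes in either tissue.

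**Figure D4:**
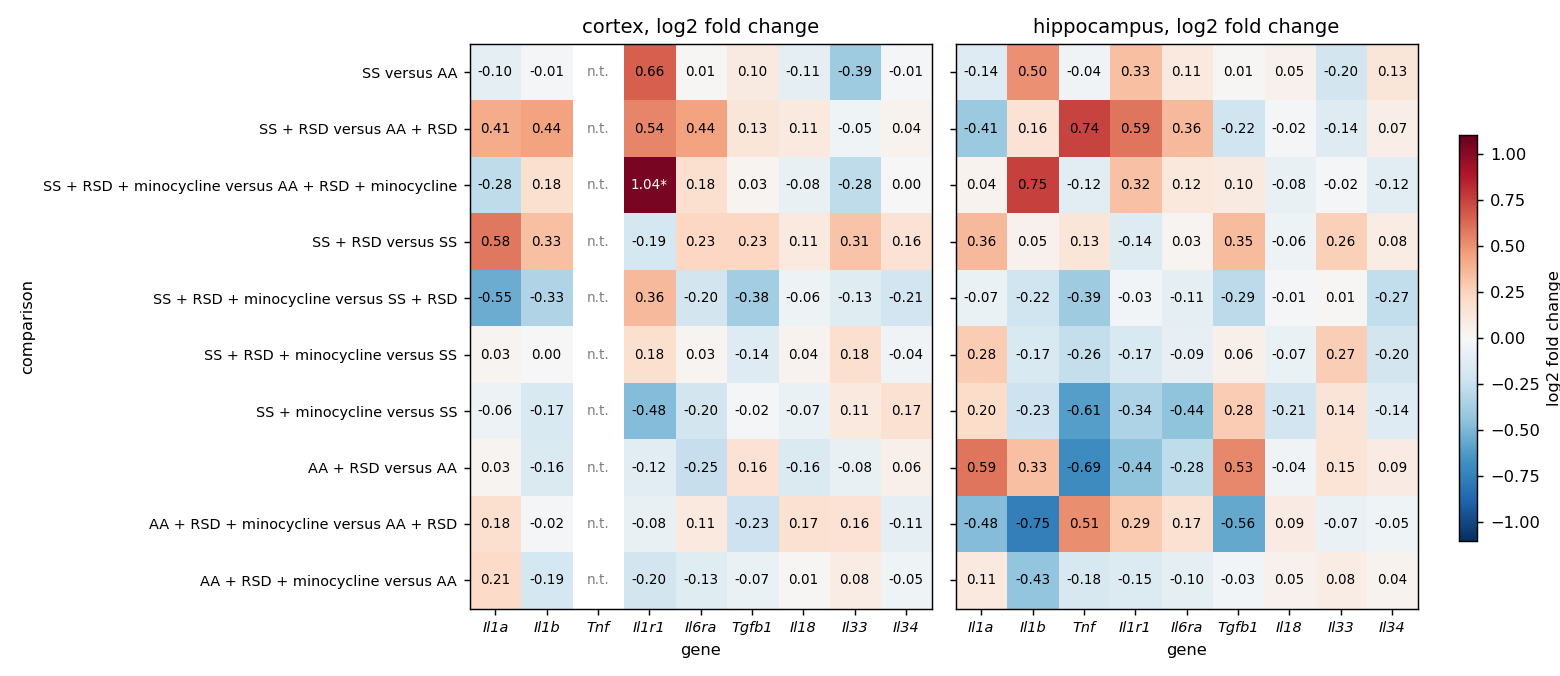
Log2 fold change of the 9 members tested in at least 1 tissue, in 10 comparisons per tissue, from edgeR, with an asterisk where the adjusted p was under 0.05 and n.t. where a member was not tested. The asterisk falls on Il1r1 in the cortex of SS + RSD + minocycline against AA + RSD + minocycline at 1.04.

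RSD without minocycline was not followed by a called change of any member. In SS mice the cortex gave 1 called gene (0.00437%) and the hippocampus none (0%, with 4441 genes at an unadjusted p under 0.05). Cortical Tgfb1 had 5.4 ± 0.406 CPM in SS + RSD and 4.69 ± 0.853 CPM in SS mice (log2 difference 0.23, adjusted p = 0.322), and hippocampal Tgfb1 had 5.93 ± 0.876 and 4.65 ± 1.05 CPM (0.35, adjusted p = 0.248). The alarm cytokines had small counts and wide spreads, with cortical Il1a at 0.73 ± 0.268 against 0.501 ± 0.188 CPM (0.58, adjusted p = 0.25) and cortical Il1b at 0.735 ± 0.359 against 0.593 ± 0.282 CPM. In AA mice, 2 stressed animals were compared with 12 and 11, and 0% of genes were called in the cortex (1215 at an unadjusted p under 0.05) and 0.0513% in the hippocampus. Hippocampal Tgfb1 was 5.59 and 8.11 CPM in the stressed AA mice and 3.4, 4.47 and 6.1 CPM as lowest, median and highest value in AA mice (log2 difference 0.53, adjusted p = 0.902).

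Minocycline with RSD, set against RSD alone in SS mice, gave many called genes, 7.21% of those tested for cortex and 4.22% for hippocampus, and no member among them. The values nearest to the threshold were those of Tgfb1 and Il34. Cortical Tgfb1 had 6.06, 5.59, 5.4, 5.37, 5.15 and 4.85 CPM in SS + RSD and 2.86, 4.11 and 5.42 CPM as lowest, median and highest value in SS + RSD + minocycline, where 10 of 14 libraries were below every SS + RSD library (log2 difference -0.38, adjusted p = 0.0867). Hippocampal Il34 had 48.5 ± 4.77 against 40.1 ± 7.27 CPM, with 12 of 14 libraries below every SS + RSD library (-0.27, adjusted p = 0.107). Against untreated SS mice, SS + RSD + minocycline gave 0% called in both tissues (1472 and 1320 genes at an unadjusted p under 0.05).

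Of the related genes, Csf1r, the receptor of IL-34, was lower in SS + RSD + minocycline than in SS + RSD in both tissues, with log2 differences of -0.41 in the cortex (adjusted p = 0.0201) and -0.46 in the hippocampus (adjusted p = 0.0388). The hippocampal call was lost without the 4 mice of doubtful genotype (-0.45, adjusted p = 0.0536) and without the libraries whose tissue markers went against the label (-0.43, adjusted p = 0.0534). Cortical Il16 was lower as well (-0.62), as were Acvrl1 (-0.35) and the kinase Jak1 (-0.26), while the IL-18 inhibitor Il18bp was higher by 1.08, the GM-CSF receptor chain Csf2ra by 0.89 and the latent TGF-beta binding protein Ltbp3 by 0.64. In the hippocampus the inflammasome sensor Nlrp3 (-0.72), the TGF-beta receptor Tgfbr2 (-0.42), gp130 itself (Il6st, -0.29) and its transcription factor Stat3 (-0.22) were lower. These make 7 of 98 related genes (7.14%) for the cortex and 5 of 99 (5.05%) for the hippocampus, close to the shares of all genes called. Cortical Jak1 and Acvrl1 did not pass without the libraries whose tissue markers went against the label (adjusted p = 0.0861 and 0.0821). Once number series was added to the model, none of the 12 calls passed. In that model the step from series A to B rests on untreated SS mice alone. These were 2 of series A against 6 (cortex) and 5 (hippocampus) of series B, so a lost call by itself says little. With series in the model, the differences of Csf1r were 0.01 (cortex) and 0.02 (hippocampus), that of Tgfbr2 was 0.01, and those of Il18bp, Csf2ra and Ltbp3 were -0.59, -0.21 and -0.18. Cortical Jak1, Acvrl1 and Il16 were at -0.05, -0.15 and -0.29, and hippocampal Il6st, Nlrp3 and Stat3 at -0.12, -0.48 and -0.21.

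In AA mice, RSD with minocycline against RSD gave 0% called in the cortex (2949 at an unadjusted p under 0.05) and 0.0513% in the hippocampus. Hippocampal Tgfb1 was 4.54 ± 0.66 CPM (n = 18) against 5.59 and 8.11 CPM, with 16 of 18 libraries below both (log2 difference -0.56, adjusted p = 0.538). With mouse 9674 kept, cortical Il1r1 was lower by 1.22 (log2 -1.22, adjusted p = 0.0116), and without it the difference was -0.08. Against untreated AA mice, 0.0481% of genes were called in cortex and 0% in hippocampus (753 at an unadjusted p under 0.05), none of them members.

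Minocycline alone was given to 4 SS mice, and 0% of genes were called against 8 and 7 SS mice (1819 and 554 at an unadjusted p under 0.05). Il6ra in the hippocampus was 6.92, 6.99, 7.74 and 7.93 CPM with minocycline and 8.42 to 11.4 CPM without, with no overlap (log2 difference -0.44 ± 0.11 SE, p = 0.00039 by edgeR before adjustment, adjusted p = 0.999). How many of all genes separated in this way was not counted. The library of mouse 9887, left out as one of the identical pair, was at 10 CPM, within the range of SS mice, and with it kept the difference was -0.36 (adjusted p = 0.961). Its Alas2 level was 7.85 CPM, nearer to the hippocampal median of AA (3.86 CPM) than of SS libraries (73.1 CPM). Whether these counts came from an SS mouse is thus in doubt. In the cortex the Il6ra values overlapped, at 3.32, 4.79, 5.31 and 6.44 CPM against 4.02 to 8.11 CPM. Il1r1 was 3.07, 3.31, 3.63 and 4.23 CPM in the cortex with minocycline, all below the SS median of 4.93 CPM (log2 difference -0.48, adjusted p = 0.688).

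The mice with RSD alone and those with RSD and minocycline do not share a range of mouse numbers. The numbers in the labels fall into ranges, called number series A, B and C here. All RSD-only mice are in series A, all mice given minocycline, with or without RSD, in B or C, and untreated mice in A and B. The comparison of SS + minocycline with SS thus also crosses the series. Hippocampal Il6ra was 8.54 CPM in SS mice of series A and 10.6 CPM in those of series B. In SS + minocycline mice it was 7.37 CPM in series B and 7.42 CPM in series C. The study's methods describe a first experiment with RSD and a second cohort with minocycline. Untreated mice of series B differed from those of series A in 35% of cortical and 37% of hippocampal genes. Hippocampal Tgfb1 was lower in series B by 0.45 (log2 -0.45, adjusted p = 0.00331), Il34 by 0.29 (-0.29, adjusted p = 0.00367) and Il33 by 0.34 (-0.34, adjusted p = 0.0472), and cortical Il1b by 0.7 (-0.7, adjusted p = 0.0221). These were 3 of 9 members in the hippocampus and 1 of 8 in the cortex, all lower in series B, which is near or below the share of all genes called. The Il33 call was lost in each of 9 alternative fits (adjusted p from 0.0612 to 0.495), so that 1 or 2 hippocampal members were called there, and Tgfb1 did not pass with the share of reads outside genes as a term (-0.32, adjusted p = 0.146). The Il1b call rests on few mice, since without SS mouse 5353 the adjusted p was 0.0866. Without the 4 mice of doubtful genotype it was 0.0507, while cortical Tgfb1 (-0.41, adjusted p = 0.0105) and Il33 (-0.33, adjusted p = 0.0463) passed.

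Among AA mice, hippocampal Tgfb1 was 5.72 ± 0.481 CPM in series A (n = 3) and 4.25 ± 0.528 CPM in series B (n = 8), and SS + RSD mice, all of series A, had 5.93 ± 0.876 CPM. Hippocampal Il34 was 48.5 ± 3.23 CPM in AA mice of series A, 40 ± 3.9 CPM in those of series B and 48.5 ± 4.77 CPM in SS + RSD mice. Once number series was added to the model, the difference between SS + RSD + minocycline and SS + RSD was -0.04 for cortical Tgfb1 (adjusted p = 1) and -0.01 for hippocampal Il34 (adjusted p = 1). Among mice of series A only, SS + RSD minus SS was -0.02 for cortical and 0.04 for hippocampal Tgfb1, from 6 SS + RSD and 2 SS mice. Between these groups, minocycline and the number series cannot be told apart. Il18bp, Csf2ra and Ltbp3, named above, were also higher in untreated mice of series B, by 1.08, 0.81 and 0.68 in the cortex. Csf1r was lower in untreated mice of series B in both tissues (log2 -0.36 in the cortex, adjusted p = 0.000926, and -0.48 in the hippocampus, adjusted p = 3e-04). So were cortical Jak1 (-0.15) and hippocampal Tgfbr2 (-0.33), Il6st (-0.18) and Stat3 (-0.15), while cortical Il16 and Acvrl1 and hippocampal Nlrp3 were not called between the series. The calls of Il6st and Stat3 were lost without the 4 mice of doubtful genotype, where no gp130 gene was called lower in hippocampal series B. Il1r1 did not pass between the series (log2 0.1 in the cortex and -0.06 in the hippocampus).

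**Figure D5:**
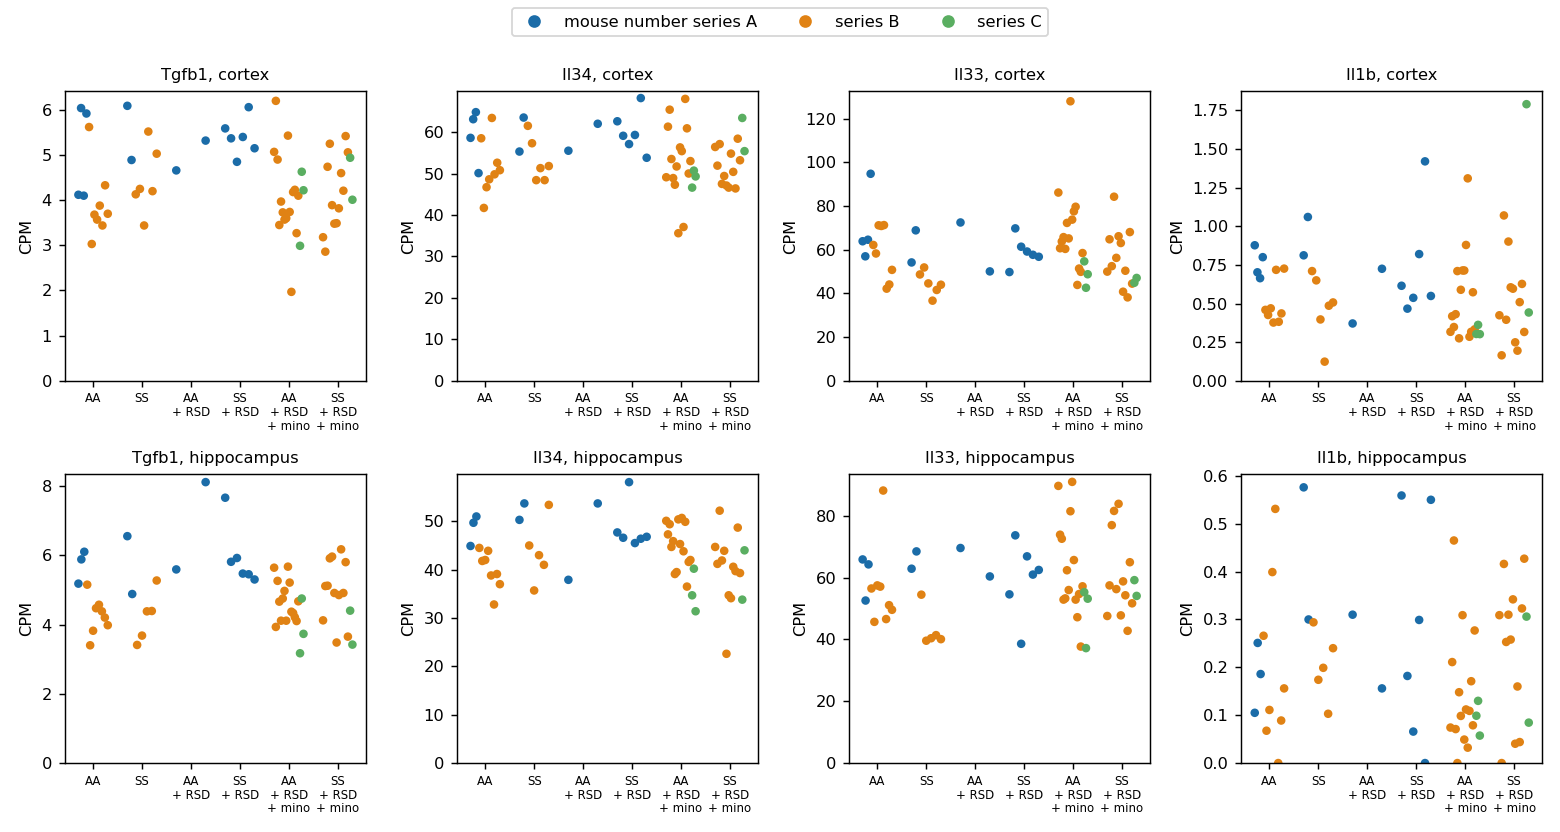
Tgfb1, Il34, Il33 and Il1b in CPM by group, each point a library and each colour a number series of mice, in the cortex and the hippocampus. Within the untreated groups the series A libraries of hippocampal Tgfb1 lie mostly above those of series B, and the SS + RSD libraries, all of series A, lie at the level of series A.

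Markers of several cell types also differed between the series. Of 10 microglia markers 8 were lower in series B in each tissue, of 8 and 7 neutrophil markers 7 and 5, and of 9 oligodendrocyte markers 3 in the cortex and 8 in the hippocampus. The summed microglia markers stood at 405 ± 67.5 CPM in cortical SS + RSD, 298 ± 52.1 in SS and 320 ± 70.4 in SS + RSD + minocycline. Their part in the members' levels was not tested.

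Across the used libraries of a tissue, Tgfb1 followed the summed microglia markers with a Spearman rho of 0.69 in the cortex (n = 65) and 0.73 in the hippocampus (n = 63), and Il34, made by neurons, with 0.55 and 0.65. Other lists came close, since Tgfb1 had 0.64 and 0.68 with erythroid, 0.57 and 0.65 with endothelial and 0.33 and 0.72 with oligodendrocyte precursor markers, and hippocampal Il34 had 0.66 with erythroid, 0.65 with oligodendrocyte precursor and 0.36 with neuron markers. Il33 followed the oligodendrocyte markers with 0.78 and 0.87. Il1r1 had 0.56 with neutrophil, 0.54 with border macrophage and monocyte and 0.06 with microglia markers in the cortex. There too other lists came close, with 0.49 for T and B cell, 0.43 for erythroid and 0.41 for endothelial markers, while neuron markers had -0.38. The hippocampal values of Il1r1 were 0.41 with neutrophil, 0.21 with border macrophage and monocyte, 0.22 with microglia and 0.33 with endothelial markers. These libraries share groups, number series and depth, so the values are descriptions. The share of reads outside genes had a rho of -0.58 with cortical Tgfb1 and -0.53 with cortical Il34. Its median differed between groups, at 4.18% in cortical SS + RSD and 9.76% in SS + RSD + minocycline, and at 4.38% and 9.32% in the hippocampus.

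For the 6 members with a mean of at least 1 CPM in both tissues, the most alike genes were those with the highest lower rho of the 2 tissues. For Il33 they included Ermn (0.81 in the cortex and 0.87 in the hippocampus), a gene of myelinating oligodendrocytes, and Tnfaip6 (0.8 and 0.86). For Tgfb1 they were Gnai2 (0.75 and 0.82), Pcbp1 (0.73 and 0.78) and Cyba (0.72 and 0.75), a subunit of the phagocyte NADPH oxidase. For Il34 they were Mtch1 (0.76 and 0.77), Tnfaip8l1 (0.76 and 0.78) and Bysl (0.78 and 0.75), and for Il18 Scnm1 (0.66 and 0.64), Nsmce2 (0.65 and 0.63) and Mrpl24 (0.63 and 0.67). The receptors had looser matches. Those of Il1r1 were Bnip2 (0.63 and 0.55), Sp100 (0.59 and 0.5) and the chemokine Cxcl12 (0.55 and 0.49), and those of Il6ra were the plasminogen activator Plat (0.55 and 0.49), Inpp5d (0.49 and 0.5) and Plce1 (0.48 and 0.48).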

How the data were processed

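Per the labels and the study's methods, the authors made directional libraries from polyadenylated RNA, sequenced them single-end, aligned them to GRCm39 with STAR and deposited raw read counts per GENCODE gene for each tissue. The annotation release, the STAR version and the strand setting are not given in the sources used here. The tables also hold 4 summary lines that name no gene. The line for reads outside genes held a median of 8.39% (cortex) and 7.69% (hippocampus) beside the gene counts, and these lines stayed out of all library sizes. Of the columns, 3 matched no library with a known group and were not used, and 1 library whose labels name different tissues stayed unassigned.

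The counts were fitted with edgeR 4.0.16 under R 4.3.3. A gene was tested if it passed filterByExpr (group-wise, at least 10 counts and 15 in total). After TMM scaling, the quasi-likelihood test was applied, with Benjamini-Hochberg adjustment over all tested genes and a threshold of 0.05. Comparisons within a genotype used a model of that genotype, the others a model of all groups. CPM use the TMM library size. Mouse number pairs the tissues, since both come from the same mouse. Over 62 mice the deviations of the tissues had a median correlation of 0.56 (lowest 0.21) within a mouse and -0.028 between mice. For 29 of the 62 mice the cortex library correlated best with the hippocampus library of its own mouse.

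The members, the related gene lists and the markers were chosen with earlier results of these data known. Named are all members, in each list up to 4 called genes per comparison with a mean of at least 1 CPM (Lif is named beside them for its role, after its values were seen), and the 3 most alike genes of each of the 6 members with a mean of at least 1 CPM in both tissues, with 0.1 CPM added before the log2. Some genes that this rule names are not reported here. The alternatives were RLE size factors, DESeq2 1.42.0, no filter or one blind to group, only the groups compared, further terms, and libraries left out or kept. Leaving out libraries whose tissue markers go against the label, the tissue marker ratio as a term, the genotype difference between tissues and leaving out SS mice of series A were added after seeing the data. Models were tested on simulated counts.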

Additional observations from a re-analysis of the deposited data

Results flagged for a closer look

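Each member was looked at in each group of 4 to 10 libraries, which made 60 combinations. In 6 of them a library was set apart from the others of its group by more than 95% of such gaps, where chance gives about 1 in 20. The same libraries enter with every member, so the combinations are not independent. Il1b was at 1.42 CPM (48 reads) in the cortex of SS + RSD mouse 9616, with the others between 0.467 and 0.82, and at 0.576 CPM (21 reads) in the hippocampus of SS mouse 5349, with the others between 0.103 and 0.3. Il6 was at 0.0195 CPM, a single read, in the cortex of SS + minocycline mouse 7121, where the others had 0. With the others at 0 any read would have been set apart, so this case says nothing. Tgfb1 was at 7.66 CPM in the hippocampus of SS + RSD mouse 5354, with the others between 5.3 and 5.92. Il34 was at 79.8 CPM in the cortex of SS + minocycline mouse 9889, with the others between 51.3 and 54, and at 58.1 CPM in the hippocampus of SS + RSD mouse 5400, with the others between 45.5 and 47.7. Without mouse 5354 the difference of hippocampal Tgfb1 between SS + RSD + minocycline and SS + RSD was -0.19 in place of -0.29, and without mouse 5400 that of hippocampal Il34 was -0.18 in place of -0.27, with none of the 4 values past the threshold.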

How the results depend on the processing

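No value of a member reversed its direction after passing the test. Where members were called, their number stayed within 1.5 times its value in 48 of 56 repeats, and where none was called it stayed at 0 in 369 of 372, which says little of stability. The exceptions follow. With only the groups compared in the model, 1 member (Il1r1) was called between SS and AA in the cortex and 4 between the tissues of SS mice. DESeq2 also called 4 between the tissues of SS mice, and so did the fit with the mouse number as a replicate block, while the block changed the number called in no other comparison. With mouse 9674 kept, 1 member (Il1r1) was called between AA + RSD + minocycline and AA + RSD in the cortex. Between number series B and A in the cortex, 2 were called without a filter on counts, 2 without the 4 mice of doubtful genotype and 0 with the share of reads outside genes as a term, and leaving out each SS mouse of series A gave 0 to 1. In the hippocampus that term left 1. Without the 4 mice, 1 member (Il1r1) was called for the genotype difference of the hippocampus minus the cortex with RSD and minocycline. Causes were not tested.

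Depth limits Tnf, Il6 and, in the hippocampus, Il1b, with medians of at most 7 reads a library. The AA + RSD group had 2 mice, and leaving out either left 1. Comparisons that share control mice are not independent of each other.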
